A study of Mus musculus with 2 samples.

Results

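Sox4+ conventional dendritic cells (cDCs) with Ccr2 transcript are the cells of cluster 3 (C3), which the authors named Sox4+ cDCs, in whose raw RNA table Ccr2 has at least 1 unique molecular identifier (UMI, 1 counted transcript). They numbered 225 of 12224 cells in the wildtype (WT) library and 568 of 12119 cells in the Batf3-/- library, 793 of 24343 cells in all. The cells were chosen by measured values, namely the deposited cluster numbers, made from the RNA of the same cells, and the Ccr2 count itself. The RNA differences below therefore describe the chosen cells and were not tested.

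Both libraries came from spleens of C57BL/6 female mice aged 8 weeks, with T and B cells depleted and live MHCII+ CD11c+ cells sorted. WT mice were bought from a supplier and Batf3-/- mice, which lack the transcription factor on which splenic cDC1s depend, were bred in house. Each genotype is a pool of 6 mice in 1 10x library stained with oligonucleotide-tagged antibodies, and the experiment was performed once. No spread between animals can be had, so genotype, pool and library cannot be told apart and no p-value is given.

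Splenic cDCs divide into cDC1s, which cross-present antigen and depend on BATF3 and IRF8, and cDC2s, which prime CD4 T cells. Among cDC2s, cDC2a express the transcription factor T-bet, while cDC2b resemble monocytes in part of their transcriptome. Plasmacytoid DCs (pDCs) are interferon-producing cells specified by the E protein TCF4, and transitional DCs share features of pDCs and cDC2s. CCR2 is the receptor for the chemokine CCL2 and guides monocytes and some DC precursors out of the bone marrow and into tissues.

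Per cell, the WT library held 753 to 37040 UMIs (median 8374.5) and the Batf3-/- library 741 to 32835 (median 8516). Exact 95% intervals given here cover counting error only. The libraries shared 56 cell barcodes, of which 0 lay in WT and 2 in Batf3-/- Ccr2+ C3 cells. Batf3 had 144 UMIs in WT Ccr2+ C3 cells, a level of 64.6 UMIs per 1000000 UMIs (CPM), and 0 of 6343869 UMIs in Batf3-/- ones. Against a limit of 3 counts over all their UMIs, which is 0.473 CPM, Batf3 was at least 137-fold lower in the knockout cells, as its label says.

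Ccr2 transcript marked a minority of C3 in both genotypes. In WT 32.0% (95% Clopper-Pearson interval 28.5 to 35.5) of 704 C3 cells held a Ccr2 UMI, and in Batf3-/- 36.9% (34.4 to 39.3) of 1541. C3 was itself 5.76% of WT cells (5.35 to 6.19) and 12.7% of Batf3-/- cells (12.1 to 13.3), so that Ccr2+ C3 cells were 1.84% (1.61 to 2.09) and 4.69% (4.32 to 5.08) of the libraries. In the Batf3-/- library 31 cells lay in the cDC1 cluster C4, against 2202 in WT. Among cells outside the 5 clusters named cDC1 (8665 in WT and 11327 in Batf3-/-), C3 was 8.12% and 13.6% and Ccr2+ C3 cells were 2.60% (2.27 to 2.95) and 5.01% (4.62 to 5.43), so both shares were higher in the Batf3-/- library with cDC1s left out too. Per cell, Ccr2+ C3 cells carried a median of 3 Ccr2 UMIs in both libraries, with a maximum of 17 in WT and 26 in Batf3-/-. Cells with exactly 1 UMI, just inside the rule, numbered 67 (29.8%) and 133 (23.4%), and those with 5 or more numbered 76 (33.8%) and 213 (37.5%).

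The share with a Ccr2 UMI depends on depth, and Ccr2+ C3 cells were the deeper ones. Their median was 9668 UMIs in WT and 10324.5 in Batf3-/-, against 7894 and 8678 in the other C3 cells. With each cell thinned to 2000 randomly drawn UMIs (0 C3 cells were too shallow), 14.6% of WT and 18.1% of Batf3-/- C3 cells still held a Ccr2 UMI. At that depth the shares were 23.1% and 18.2% in C2, named cDC2b by the authors, and 15.8% and 17.8% in C14, named pDCs. C0, named cDC2a by the authors and taken as background because its Ccr2 level was 1.70 and 2.51 CPM, had 0.284% and 0.511% after thinning and 1.04% and 1.76% as deposited, at median depths of 6648 and 7187 UMIs. As C0 was taken for its low Ccr2 level, its place below C3 follows from that choice.

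**Figure D1:**
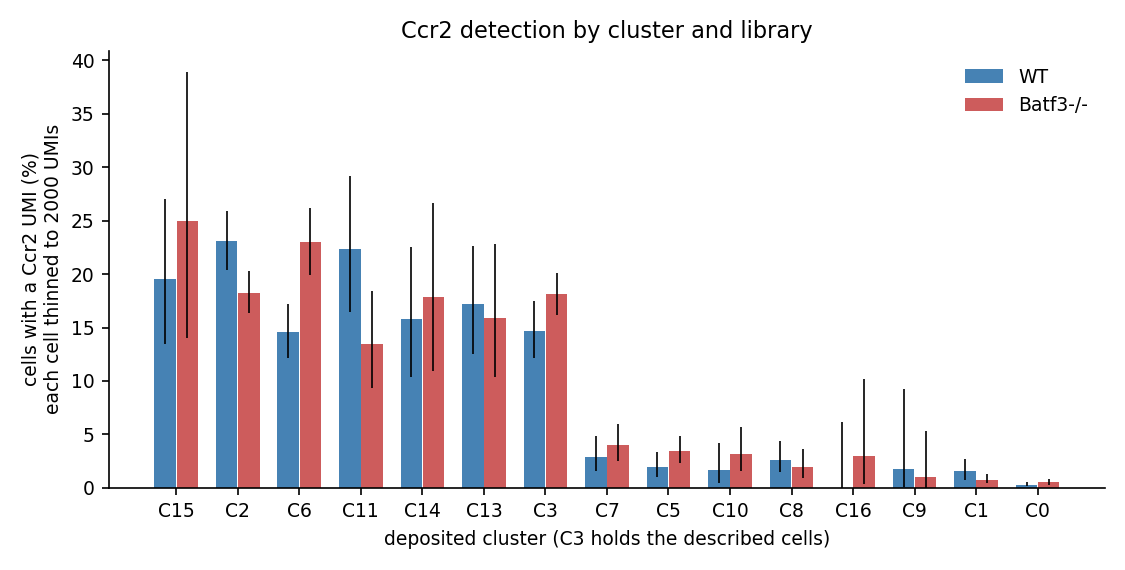
Share of cells with a Ccr2 UMI after thinning to 2000 UMIs, in percent, for the WT and Batf3-/- libraries with 95% Clopper-Pearson intervals. Shown are C3 and the 14 other clusters with at least 50 cells in both libraries. Cells with fewer than 2000 UMIs were left out, 316 of them in WT C9. C3 stands at 14.6% and 18.1%, close to C14 at 15.8% and 17.8%, and C0, taken for its low Ccr2 level, at 0.284% and 0.511%.

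The label was checked against its markers. Sox4, an SRY-box transcription factor, was at 299 CPM in WT and 305 CPM in Batf3-/- Ccr2+ C3 cells, above C14 (52.6 and 109 CPM) and C2 (33.7 and 54.3 CPM). It was nonetheless lower than in the other C3 cells (666 and 767 CPM), with log2 ratios of -1.16 (-1.28 to -1.03) and -1.33 (-1.40 to -1.26). Ccr2+ C3 cells were thus Sox4+ relative to pDCs and cDC2b but held the lower Sox4 level within their cluster. Tcf4 was at 765 and 836 CPM against 316 and 338 CPM in the other C3 cells, log2 ratios of 1.27 (1.17 to 1.38) and 1.31 (1.24 to 1.37). Cd8a, which encodes the CD8 alpha chain found on cDC1s and on some pDC-related cells, was at 455 and 394 CPM against 204 and 254 CPM, log2 ratios of 1.15 (1.02 to 1.29) and 0.63 (0.55 to 0.72). Ccr2 is present by the rule, and of the other 3 marker genes Tcf4 and Cd8a were above and Sox4 below the rest of C3.

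Of the 2602 genes whose mean over the 4 sums reached 50 CPM, 150 (5.76%) were at least 1.5-fold higher in Ccr2+ than in other C3 cells in both libraries and 120 (4.61%) were at least 1.5-fold lower, Ccr2 itself left out. A gene could pass the filter through 1 group alone, in which case a difference follows from the filter, so that the counts and medians of lists given here are descriptions and partly fixed by it. The lists also share genes, and their counts are not independent. The median log2 ratio over all these genes was -0.00079 in WT and -0.0099 in Batf3-/-. Genes of the pDC, cDC2b, cDC1 and interferon response lists were more often higher than lower in Ccr2+ C3 cells, and genes of the cDC2a and early response lists more often lower than higher. Since every C3 gene helped make the clusters and Ccr2 made the split, these are descriptions of the chosen cells.

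**Figure D2:**
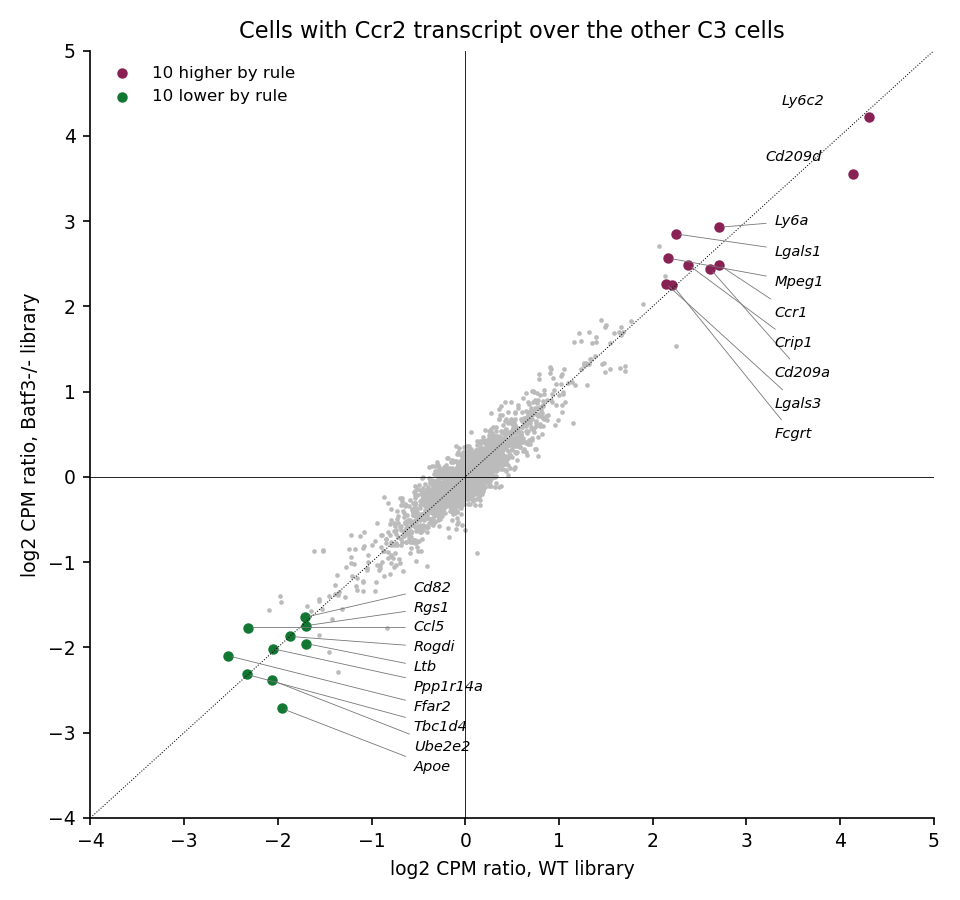
Each point is a gene, with the log2 ratio of Ccr2+ over other C3 cells in WT on the x axis and in Batf3-/- on the y axis, over 2602 genes. Ly6c2 and Cd209d lie farthest to the upper right, and Tbc1d4, Apoe and Ccl5 lie to the lower left.

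Among the genes that passed the filter, the widest difference was in Ly6c2, a GPI-anchored surface protein of the Ly6C family carried by pDCs and classical monocytes. It was at 358 CPM in WT and 311 CPM in Batf3-/- Ccr2+ C3 cells against 18.0 and 16.7 CPM in the other C3 cells, log2 ratios of 4.31 (3.96 to 4.68) and 4.22 (3.98 to 4.47). It passed the filter through Ccr2+ C3 cells alone, which fixes its direction. With cells both chosen and counted after thinning to 2000 UMIs, the log2 ratios were 3.03 and 2.59. C14 pDCs held still more, 1485 and 1655 CPM, and C2 held 14.6 and 14.9 CPM. Against C2 the log2 ratios of Ly6c2 were 4.62 and 4.38, so C2 lay as far below as the rest of C3.

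Cd209d, a C-type lectin of the DC-SIGN family, followed at 822 and 540 CPM against 46.7 and 45.9 CPM, log2 ratios of 4.14 (3.92 to 4.37) and 3.56 (3.41 to 3.71), or 2.75 and 2.28 after the same thinning. Cd209d too passed the filter through Ccr2+ C3 cells alone, which fixes its direction. Its level in Ccr2+ C3 cells was above that of each of the 14 other clusters with at least 50 cells in both libraries, of which C14 was the highest at 425 and 413 CPM. Its relative Cd209a, used as a cDC2b marker, was at 621 and 541 CPM against 101 and 99.6 CPM and close to C2 at 669 and 524 CPM. Among the other clusters, Cd209d was thus highest in pDCs and Cd209a in cDC2b. Reads of such close paralogs, and of the Ly6 and Klk1 families, may be split uncertainly by the counting.

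Promoter windows of the 2 most separated genes are shown with their motif matches, since both genes are high in the same cells. The windows run from 250 bases before to 50 after the RefSeq start (GRCm38.p6). The motifs searched on both strands were the E-boxes CACCTG and CAGCTG, of the kind that E proteins such as TCF4 bind, and the ETS-IRF composite element (EICE). Capitals mark a match. The Ly6c2 window lies at chr15:75111922-75112221 on the minus strand and holds 1 CAGCTG.
Ly6c2: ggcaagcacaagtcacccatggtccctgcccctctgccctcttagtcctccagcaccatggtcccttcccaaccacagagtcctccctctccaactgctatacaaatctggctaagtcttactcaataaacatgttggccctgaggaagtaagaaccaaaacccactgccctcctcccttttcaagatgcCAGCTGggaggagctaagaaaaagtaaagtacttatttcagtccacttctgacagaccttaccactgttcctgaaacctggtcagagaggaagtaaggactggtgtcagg
The Cd209d window lies at chr8:3878450-3878749 on the minus strand and holds 1 EICE, read on the opposite strand.
Cd209d: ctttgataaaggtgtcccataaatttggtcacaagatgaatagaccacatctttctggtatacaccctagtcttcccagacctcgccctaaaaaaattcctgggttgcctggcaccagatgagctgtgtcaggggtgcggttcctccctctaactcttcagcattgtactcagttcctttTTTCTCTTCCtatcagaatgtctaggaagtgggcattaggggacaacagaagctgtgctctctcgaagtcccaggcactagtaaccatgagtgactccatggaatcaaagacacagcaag
Of 27025 RefSeq promoter windows of this length, 5413 held CACCTG, 16.1% CAGCTG and 2.79% an EICE. Neither window held CACCTG, and the Ccr2 window, searched too, held no match to any of these motifs. A match describes these letters and is not a shown binding site.

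Genes of the pDC list were mostly higher in Ccr2+ C3 cells. Of 30 listed genes 19 passed the level filter, 12 were higher and 1, Pld4, was lower, with median log2 ratios of 1.15 in WT and 0.99 in Batf3-/-, against all-gene medians near 0. Bst2, the interferon-induced membrane protein tetherin, was at 1034 and 987 CPM against 327 and 292 CPM, log2 ratios of 1.66 and 1.76. Irf8, which pDCs and cDC1s both need, was at 134 and 128 CPM against 32.0 and 19.5 CPM, log2 ratios of 2.06 and 2.71. Lag3 and Runx2, also on the list, were at 313 and 317 CPM against 175 and 162 CPM, and at 146 and 134 CPM against 46.7 and 55.7 CPM. Siglech, a pDC surface lectin, did not pass the fold, at 148 and 112 CPM against 121 and 94.5 CPM. Ly6d and Klk1, which mark pDCs strongly, stood at 25.1 and 10.6 CPM and at 0.897 and 0.631 CPM. Ly6c2, Irf8, Cd209d and Mpeg1, at least, passed the filter through Ccr2+ C3 cells alone. This fixed their direction and part of the count.

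The sum of the 30 pDC genes per cell placed Ccr2+ C3 cells between the other C3 cells and pDCs. Its median was 91.4 UMIs per 10000 in WT and 81.7 in Batf3-/-, against 34.0 and 36.2 in the other C3 cells and 25.3 and 24.6 in C2. In C14 it was 332 and 321. The upper end of Ccr2+ C3 cells reached pDCs, with a 95th percentile of 181 and 191 against a 5th percentile of 158 and 170 in C14. The distributions overlapped with both neighbours. Plac8, which is also among the monocyte markers given below, made up a large part of the sum in Ccr2+ C3 cells. Its level there was 3679 and 3302 CPM, close to 3387 and 3315 CPM in C14. The sum without Plac8 was not taken.

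The cDC2b and monocyte-linked list was higher too, in a smaller part. Of 26 listed genes 20 passed the filter, 10 were higher, and 3 (Ifitm6, Ltb and Sirpa) were lower, with medians of 0.61 and 0.62. Cx3cr1, the fractalkine receptor, was at 147 and 160 CPM against 48.9 and 49.7 CPM, log2 ratios of 1.59 and 1.69. Klf4, a transcription factor of monocytes and some cDC2s, was at 248 and 291 CPM against 148 and 155 CPM. Csf1r, the receptor for macrophage colony-stimulating factor, was at 75.3 and 87.5 CPM against 42.1 and 54.8 CPM. Cx3cr1, Csf1r, Ccr1 and Ly6i, at least, passed the filter through Ccr2+ C3 cells alone. This fixed their direction and part of the count. Per cell, the 26 genes summed to a median of 117 and 116 UMIs per 10000, against 92.7 and 98.2 in other C3 cells and 136 and 133 in C2.

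Of 6 monocyte markers, 3 (Ly6c2, Csf1r and Plac8) passed the level filter and were higher, but these same genes stand on the pDC list (Ly6c2 and Plac8) or the cDC2b list (Csf1r) and add nothing to those counts. The summed level of the 6 was 4150 and 3774 CPM in Ccr2+ C3 cells, 1868 and 1755 CPM in the other C3 cells and 4477 and 4122 CPM in C2. Most of it was Plac8, at 3679 and 3302 CPM. Their defining members were near 0: Fcgr1 at 0.448 and 0.946 CPM, F13a1 at 0 in WT and 0.158 CPM in Batf3-/-. Lyz2, a lysozyme abundant in monocytes, was below the level filter at 37.2 and 72.4 CPM, against 17.8 and 24.3 CPM in the other C3 cells and 3149 and 2747 CPM in C2. The reference-based labels deposited by the authors called 2 WT and 12 Batf3-/- Ccr2+ C3 cells monocytes and 223 (99.1%) and 556 (97.9%) DCs. The part of monocyte RNA in these differences was not tested.

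Markers of other cells that the sort could hold were low. T and NK cell markers summed to 0 in WT, with 5 of 5 genes at 0, and to 0.315 CPM in Batf3-/-, with 3 at 0. Neutrophil markers summed to 0.448 and 0.473 CPM, with 3 of 4 at 0, and macrophage markers to 4.93 and 3.94 CPM. B and plasma cell markers summed to 6.28 and 4.10 CPM against 29.7 and 34.1 CPM in the other C3 cells, the reverse of the pDC and cDC2b lists. Erythroid markers summed to 5.38 and 10.4 CPM.

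Among transcription factors of the E protein, Id and partner list, 18 of 25 passed the filter, 9 were higher and 4 lower, with medians of 0.51 and 0.49. Id2, the inhibitor of E proteins, was at 26.0 and 41.6 CPM against 79.9 and 76.0 CPM, log2 ratios of -1.62 and -0.87. Runx1 was at 235 and 232 CPM against 89.0 and 77.3 CPM, log2 ratios of 1.40 and 1.58, while Runx3 had log2 ratios of -0.69 and -0.63. Irf4, which cDC2 development needs, was at 71.3 and 75.3 CPM against 40.1 and 40.6 CPM. Tcf4 was higher and Id2 lower in both libraries. Id2 passed the filter through the other C3 cells alone, which fixes its direction. Irf4 and Irf8, also on this list, passed it through Ccr2+ C3 cells alone, which fixes theirs. Spib, a pDC-linked ETS factor, was at 88.3 and 73.9 CPM against 75.3 and 72.6 CPM, close to equal.

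Of chemokine and homing receptors other than Ccr2, 7 passed the filter, 2 were higher and 1, Itga4, was lower (5.76% and 4.61% over all genes). Both higher genes, Ccr1 and Cx3cr1, passed the filter through Ccr2+ C3 cells alone, which fixes their direction. Ccr1, a receptor for CCL3 and CCL5, was at 104 and 98.2 CPM against 16.0 and 17.5 CPM, log2 ratios of 2.70 (2.30 to 3.13) and 2.49 (2.24 to 2.76). The highest of the 14 other clusters held 11.3 CPM in WT and 8.21 CPM in Batf3-/-, below both parts of C3. Ccr1 lies at chr9:123962124-123968692 and Ccr2 at chr9:124101950-124113557 (GRCm38). The alpha 4 integrin Itga4, by contrast, was at 314 and 281 CPM against 518 and 459 CPM.

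Several leading genes were named by size. Of these, Mpeg1 is also on the pDC list, Lgals3 on the cDC2b list and Ly6a on the progenitor list. Ly6a (Sca-1) was at 209 and 101 CPM against 32.0 and 13.3 CPM. Crip1, a LIM-domain protein, was at 943 and 1093 CPM against 181 and 195 CPM. The galectin genes Lgals1 (123 and 199 CPM against 25.9 and 27.5 CPM) and Lgals3 (556 and 578 against 126 and 120 CPM) were both higher. Fcgrt, the neonatal Fc receptor heavy chain, was at 143 and 148 CPM against 30.9 CPM in both libraries. Mpeg1, a perforin-like protein of phagocytes, was at 105 and 79.9 CPM against 23.3 and 13.5 CPM. Fcgrt was above the highest of the 14 clusters, C15 at 76.8 and 59.6 CPM, whereas Mpeg1 was below 6 of them. Ly6a, Lgals1, Fcgrt and Mpeg1 passed the filter through Ccr2+ C3 cells alone, which fixes their direction.

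Cd33, a sialic acid-binding receptor used to define some DC precursors, was at 91.5 and 84.5 CPM against 24.6 and 20.7 CPM. Flt3, the growth factor receptor of DCs and their precursors, was at 276 and 258 CPM against 242 and 233 CPM, both above the highest of the 14 other clusters (205 and 185 CPM), so a high Flt3 level was shared by all of C3. Kit, a stem and progenitor receptor, had log2 ratios of -0.70 and -1.01. Of 20 progenitor and pre-DC genes, 11 passed the filter, 4 were higher and 3 lower, with medians of 0.31 and 0.23. Over all genes 5.76% were higher and 4.61% lower. Of the higher genes, Cd33, Ly6a and Ly6c2 passed the filter through Ccr2+ C3 cells alone, which fixes their direction. Genes of that list thus lay on both sides, in part by the filter.

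Of 21 listed interferon response genes 8 passed the filter, 6 were higher and 1 (Ifitm1) lower, with medians of 1.10 and 1.03. Of these 6, Bst2 and Irf7 are also on the pDC list and Ifitm3 is on the cDC2b list. Of antigen presentation genes 18 passed the filter, 1 was higher and 2 lower (5.76% and 4.61% over all genes), and nothing is read from these few about the group. H2-DMb1, a subunit of the editor that loads peptide on MHCII, was at 683 and 788 CPM against 259 and 253 CPM, log2 ratios of 1.40 and 1.64. The 2 lower genes encode its inhibitor H2-O, with log2 ratios of -0.67 and -0.69 for H2-Oa and -0.90 and -0.69 for H2-Ob. H2-Aa, an MHCII chain, had log2 ratios of 0.01 and 0.10. Among Toll-like receptors 4 were tested and 0 passed in either direction, with medians of 0.05 and 0.14.

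The lower end was led by Tbc1d4, a Rab GTPase-activating protein, at 141 and 139 CPM against 712 and 690 CPM, log2 ratios of -2.33 (-2.51 to -2.17) and -2.32 (-2.42 to -2.21). Ltb, the lymphotoxin beta chain, was at 322 and 282 CPM against 1048 and 1092 CPM. Apoe, a lipid carrier, was at 107 and 50.8 CPM against 415 and 333 CPM. Ccl5, the chemokine RANTES, was at 70.9 and 47.0 CPM against 352 and 160 CPM. Each of these 4 genes had a higher level in at least 7 of the 14 other clusters than in Ccr2+ C3 cells. Ffar2, a receptor for short-chain fatty acids, was at 22.4 and 36.3 CPM against 130 and 155 CPM. Rgs1, a regulator of G-protein signalling, was at 144 and 113 CPM against 469 and 380 CPM. Rogdi, Ppp1r14a, Ube2e2 and the tetraspanin Cd82 had log2 ratios between -2.39 and -1.65. Ffar2, Ppp1r14a, Ube2e2 and Cd82 passed the filter through the other C3 cells alone, which fixes their direction.

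Of cDC2a genes 11 passed the filter, 0 were higher and 6 lower, with medians of -0.62 and -0.63. Ffar2, at least, passed the filter through the other C3 cells alone, which fixed its direction and part of the count. The 5 cDC2a markers did not show a lower level, with a sum of 605 and 652 CPM against 536 and 542 CPM. Most of that sum was Cd7, an immunoglobulin family surface protein on both lists, at 578 and 618 CPM against 419 and 430 CPM, which did not pass the fold. Cd4, a cDC2a surface protein that fell below the filter, was at 12.6 and 15.9 CPM against 45.1 and 40.1 CPM, and the adhesion molecule Esam at 2.69 CPM against 15.7 CPM in WT. The cDC2a genes and markers therefore did not all lie on 1 side. Of cDC1 genes 7 passed, 4 (Naaa, Cd24a, Irf8 and Cst3) were higher and 2 (Id2 and Wdfy4) lower. Over all genes 5.76% were higher and 4.61% lower. The medians of 0.64 and 0.99, at least as large as those of the cDC2b list, were the ratios of Naaa itself. Naaa and Irf8 passed the filter through Ccr2+ C3 cells alone, and Id2 through the other C3 cells alone. This fixed their direction and part of the count. The 5 cDC1 markers summed to 155 and 132 CPM against 71.3 and 47.6 CPM in the other C3 cells and 2299 and 839 CPM in C4. Xcr1, which defines cDC1s, was at 3.14 and 1.42 CPM.

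Stress and early response genes went the other way as a group, with 0 of 15 tested genes higher and 9 lower (Fos, Fosb, Jun, Jund, Egr1, Dusp1, Nr4a1, Btg2 and Klf6) and medians of -0.75 and -0.66. Egr1 was at 84.3 and 108 CPM against 331 and 284 CPM. The 18 genes summed to 6937 and 6901 CPM in Ccr2+ C3 cells against 11098 and 10667 CPM in the other C3 cells and 10514 and 9782 CPM in C2. Mitochondrial shares were close, with medians of 3.93% and 3.77% against 4.09% and 3.90%. Of maturation genes 8 passed, 0 were higher and 3 (Cd83, Fscn1 and Relb) lower (5.76% and 4.61% over all genes), with medians of -0.33 and -0.42. With so few genes tested, nothing is read from the 0 higher.

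Cells called in S phase by the authors were fewer among Ccr2+ C3 cells. They were 14 of 225 (6.22%, 3.44 to 10.2) in WT and 22 of 568 (3.87%, 2.44 to 5.81) in Batf3-/-, against 59 (12.3%, 9.51 to 15.6) and 100 (10.3%, 8.44 to 12.4) of the other C3 cells. Cells called in G2M were few everywhere, 3 and 9 against 3 and 2. No share of cycling cells is read from these phase calls alone.

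Levels are also given by the number of Ccr2 UMIs per cell. These classes come from the counts that the rule used, and the genes were followed because they differed across the same split, so the values only describe it. Ly6c2 went from 18.0 CPM in WT cells with 0 Ccr2 UMIs to 108 with 1, 286 with 2, 431 with 3 or 4 and 562 CPM with 5 or more, and in Batf3-/- from 16.7 to 135, 130, 322 and 461 CPM. Cd209d went from 46.7 to 413, 578, 855 and 1265 CPM in WT and from 45.9 to 251, 361, 502 and 785 CPM in Batf3-/-. Sox4 went the other way, from 666 to 479, 286, 212 and 202 CPM in WT and from 767 to 359, 352, 341 and 237 CPM in Batf3-/-. Tcf4 differed less steeply, from 316 to 635 and then 869 CPM at 5 or more in WT, and from 338 to 684 and then 992 CPM in Batf3-/-. Cd8a differed at the first step, 204 against 499 CPM and 254 against 395 CPM, and was 441 and 378 CPM at 5 or more. Median depth was 7894 and 8678 UMIs at 0 and between 9396 and 9894 UMIs in the other WT classes and 9970 and 10754 in the Batf3-/- ones.

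**Figure D3:**
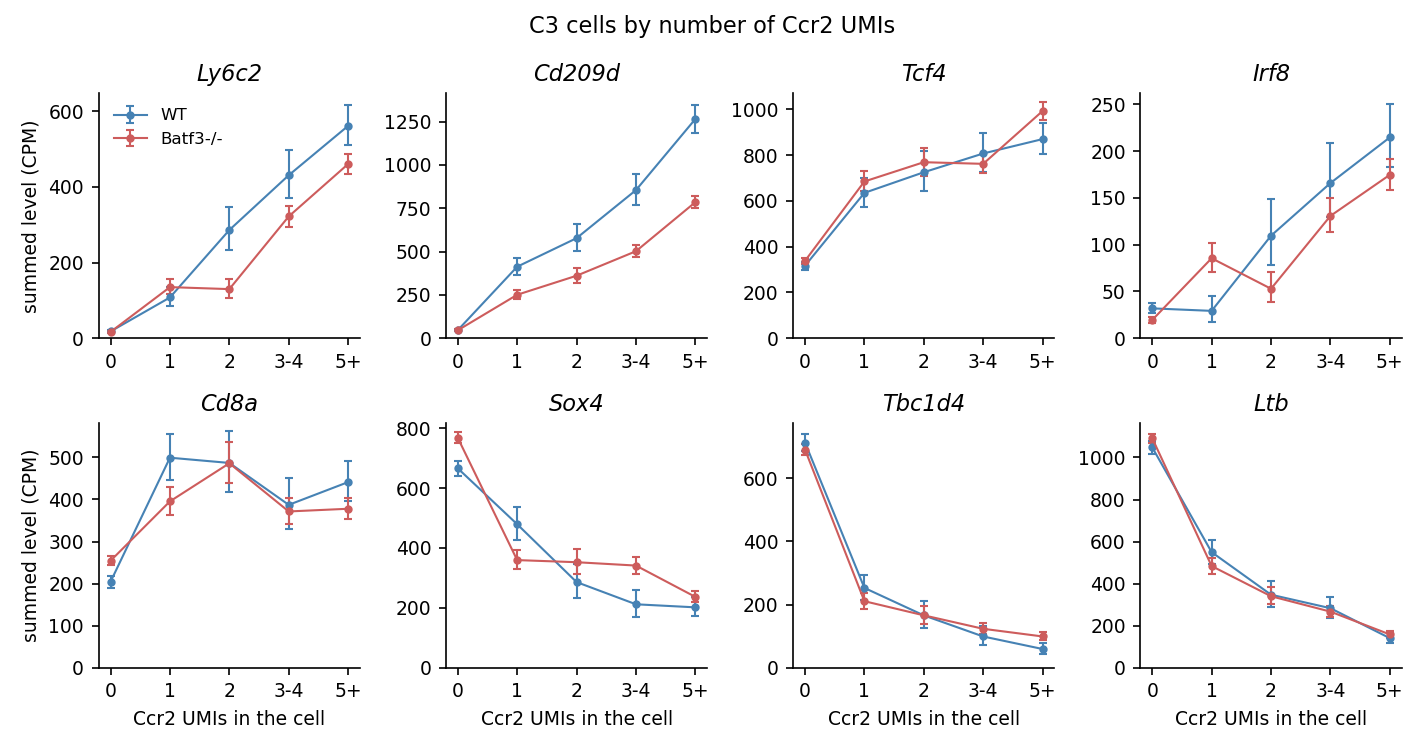
CPM of 8 genes (linear axes) in C3 cells with 0, 1, 2, 3 or 4, and 5 or more Ccr2 UMIs, in the WT and Batf3-/- libraries, with exact 95% Poisson intervals. In WT, Ly6c2 runs from 18.0 to 562 CPM and Sox4 from 666 to 202 CPM across the classes.

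A minority of Ccr2+ C3 cells held both Cd209d and Ly6c2. After thinning to 5000 UMIs, which left 224 WT and 565 Batf3-/- Ccr2+ C3 cells, Cd209d was detected in 136 and 311 of them, Ly6c2 in 94 (42.0%) and 218 (38.6%), and both in 82 (36.6%) and 173 (30.6%). In the other C3 cells Cd209d was detected in 5.59% and 6.45%, Ly6c2 in 2.24% and 2.75%, and both in 1.34% and 1.27%. Siglech and Ly6c2 were both detected in 21.0% and 15.8% against 1.34% and 1.48%. Cd8a was detected in 62.9% and 60.0%, against 26.6% and 31.7%. Cd8a with Itgam, which encodes CD11b, was found in 1 of 224 WT (0.446%) and 11 of 565 Batf3-/- (1.95%) Ccr2+ C3 cells, against 6 of 447 (1.34%) and 9 of 946 (0.951%) of the other C3 cells. Joint detection is bounded by the rarer gene, and Itgam was seen in 1.79% and 5.49% against 5.37% and 6.13%.

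Published gene sets given in the study's supplement were counted too. The transitional DC set had 16 genes, of which 12 passed the filter, 7 were higher and 1 (Sirpa) lower. Its medians were 0.84 and 0.65. Irf8, Irf4, Cx3cr1 and Csf1r, at least, passed the filter through Ccr2+ C3 cells alone. This fixed their direction and part of that count. The Siglech DC set had 23 tested genes, with 7 higher, 2 (Fscn1 and Sox4) lower and medians of 0.31 and 0.03. The cDC2b set had 8 tested genes of 146 in the data, with 6 higher and 0 lower. Of those 6, Csf1r, Cx3cr1, Ly6a and Ly6i passed the filter through Ccr2+ C3 cells alone, which fixes their direction. The DC5 transcription factor set had 13 tested genes, with 4 higher and 4 lower. The core DC set had 27, with 3 higher and 4 lower, and the cDC2a set 5, with 1 higher and 2 lower. The pDC, cDC1 and CD8- DC sets had 1 tested gene each. Over all genes 5.76% were higher and 4.61% lower. Tcf4 and Bst2 are in both the transitional and the Siglech DC set, so these counts overlap.

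Against C14 pDCs, 131 of 2715 genes (4.83%) were at least 2-fold higher in Ccr2+ C3 cells in both libraries and 230 (8.47%) at least 2-fold lower, with all-gene medians of -0.063 and -0.066. Of 29 pDC genes that passed the filter 0 were higher and 21 lower, a count partly fixed by the filter, since genes such as Klk1 reached 50 CPM on average through C14 alone. Irf8 was at 134 and 128 CPM against 2960 and 2996 CPM. Dntt, the template-independent DNA polymerase of lymphoid cells, had 0 UMIs in Ccr2+ C3 cells against 149 and 82.5 CPM, at least 111-fold and 174-fold lower against 3 counts over all their UMIs. Klk1, a kallikrein, was at 0.897 and 0.631 CPM against 1100 and 1020 CPM. Mzb1, an endoplasmic reticulum protein of pDCs and plasma cells, had 0 UMIs in WT and 0.473 CPM in Batf3-/-, against 223 and 159 CPM. These 3 genes were named for their low ratio and passed the filter through C14 alone, so their place below C14 follows from that.

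At the higher end against C14 stood Chil5, a chitinase-like protein, at 126 and 133 CPM against 3.20 and 4.80 CPM, and Wfdc17, at 257 and 278 CPM against 14.1 and 27.8 CPM. Klrk1 (NKG2D) was at 130 and 118 CPM against 11.5 and 13.4 CPM. Cx3cr1 was at 147 and 160 CPM against 18.6 and 7.67 CPM. Ccr1 had 1 UMI in WT and 6 UMIs in Batf3-/- pDCs, which gives log2 ratios of 7.34 (4.85 to 12.65) and 4.09 (2.96 to 5.54). These 5 genes passed the filter through Ccr2+ C3 cells alone, which fixes their direction. Of 22 tested cDC2b and monocyte-linked genes 12 were higher and 1, Clec10a, lower, a count partly fixed by the filter in the same way. The published cDC2b set went the other way against C14. Of its 16 tested genes 3 were higher and 9 lower, with median log2 ratios of -1.73 and -1.96. Cells among the 5% with the highest doublet scores made up 21.4% and 16.8% of C14 and 1.78% and 6.16% of Ccr2+ C3 cells. The WT C14 also carried 517 CPM of Lyz2 against 129 CPM in Batf3-/-.

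Against C2 cDC2b, 82 of 2524 genes (3.25%) were at least 2-fold higher and 113 (4.48%) at least 2-fold lower, with all-gene medians of 0.12 and 0.099. Cd8b1, the CD8 beta chain, was at 163 and 91.9 CPM against 0.603 CPM in WT, log2 ratios of 8.08 (6.84 to 9.71) and 5.94 (5.34 to 6.61), and Siglech at 148 and 112 CPM against 3.26 and 1.70 CPM. Tcf4 was at 765 and 836 CPM against 93.0 and 89.4 CPM. Of 18 tested pDC genes 12 were higher and 1, Pld4, lower. Ccr1 was at 104 and 98.2 CPM against 4.83 and 3.52 CPM. Cd8b1, Siglech and Ccr1 passed the filter through Ccr2+ C3 cells alone, so that their direction, and part of the pDC count, was fixed by it.

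At the lower end against C2 stood Lyz2, with log2 ratios of -6.40 (-6.73 to -6.09) and -5.25 (-5.38 to -5.11). Hpgd, which breaks down prostaglandins, was at 2.69 and 7.25 CPM against 153 and 184 CPM. The tetraspanin Cd81 was at 4.93 and 6.62 CPM against 164 and 91.1 CPM, and the matrix protein gene Tgfbi at 8.07 and 10.4 CPM against 281 and 156 CPM. Of 22 tested cDC2b and monocyte-linked genes 2 were higher and 3 (Lyz2, Ifitm6 and Sirpa) lower. Of 19 tested antigen presentation genes 0 passed in either direction. Of the published cDC2b set 15 were tested against C2, with 3 higher and 6 lower. Hpgd, Cd81 and Tgfbi passed the filter through C2 alone, which fixed their direction and part of these counts. The deposited labels called 40.8% and 31.6% of C2 cells monocytes.

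**Figure D4:**
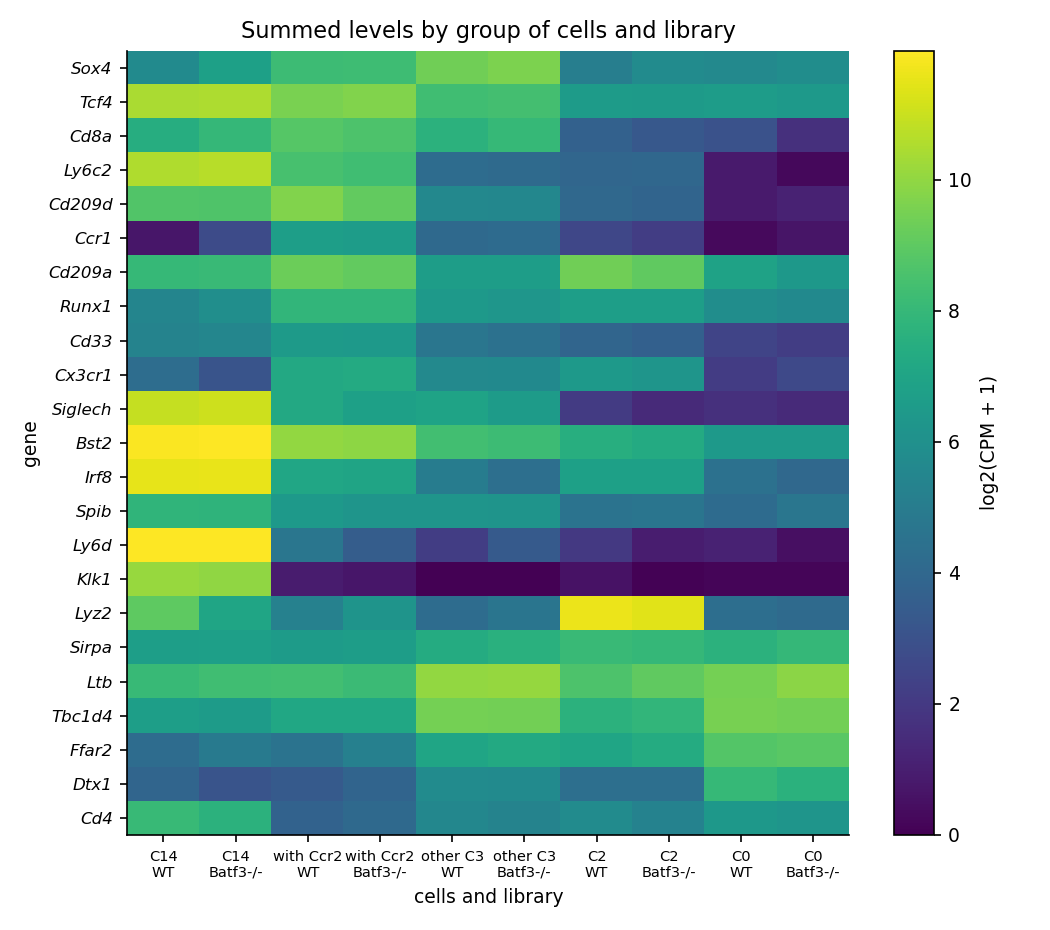
Heat map of log2(CPM + 1) of marker genes (rows) in C14, Ccr2+ C3 cells (with Ccr2), other C3 cells, C2 and C0 of each library (columns). Ccr2+ C3 cells lie between C14 and C2 for Tcf4 (765 and 836 CPM) and Bst2 (1034 and 987 CPM), and above both for Ccr1 (104 and 98.2 CPM).

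Few genes differed by 1.5-fold between Ccr2+ C3 cells of the 2 genotypes. Of the 2586 genes whose mean reached 50 CPM, 4 (0.155%) were at least 1.5-fold higher in Batf3-/- and 8 (0.309%) at least 1.5-fold lower, with a median log2 ratio of 0.01. The 4 higher genes were Lyz2 (37.2 in WT and 72.4 CPM in Batf3-/-), Mndal (144 and 238 CPM), Lgals1 (123 and 199 CPM) and Hspb1 (61.0 and 94.9 CPM). The 8 lower genes were Apoe, Ly6a, Cd8b1, Gm47283, Ly6i, Cd209d, Fabp5 and Ccl5. Batf3 itself fell under the level filter and is not among them. With 1 library a genotype these are differences of 2 pools, with no replicate check.

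Ly6a was at 209 CPM in WT and 101 CPM in Batf3-/- Ccr2+ C3 cells, a log2 ratio of -1.05 (-1.23 to -0.88), with -1.27 (-1.64 to -0.89) in the other C3 cells, -1.89 (-2.12 to -1.67) in C2, -0.11 (-0.20 to -0.03) in C14 and 0.24 (-0.04 to 0.53) in C0. Cd209d was at 822 and 540 CPM, -0.61 (-0.69 to -0.52), with -0.02 (-0.28 to 0.24) in the other C3 cells and -0.04 (-0.22 to 0.14) in C14. Cd8b1 was at 163 and 91.9 CPM, -0.83 (-1.02 to -0.64), with -0.37 (-0.63 to -0.11) in the other C3 cells and -0.41 (-0.57 to -0.25) in C14. The Cd209d difference was not seen in the other C3 cells or C14, though the difference between these groups was not tested.

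Mndal, an interferon-inducible gene at chr1:173849126-173942491 on the chromosome that carries Batf3 (chr1:191097847-191108945, GRCm38), was higher in each of the 5 groups of cells compared. Its log2 ratio was 0.73 (0.55 to 0.91) in Ccr2+ C3 cells, 1.07 (0.89 to 1.26) in the other C3 cells, 0.44 (0.21 to 0.66) in C14, 0.73 (0.63 to 0.82) in C2 and 1.10 (1.03 to 1.16) in C0. Hspb1 was likewise higher in all of them, between 0.39 and 1.03. Lyz2 had 0.96 (0.62 to 1.31) in Ccr2+ C3 cells and 0.45 (0.05 to 0.86) in the other C3 cells but -2.01 (-2.28 to -1.74) in C14 and -0.20 (-0.22 to -0.17) in C2. Mndal and Hspb1 thus differed in the same direction in the 5 groups compared, and Lyz2 did not. Among the lower genes, Ccl5 was lower in each of the 5 groups. Its log2 ratio was -0.59 in Ccr2+ C3 cells, -1.14 in other C3 cells, -3.49 in C14, -0.97 in C2 and -1.49 in C0. Gm47283 was also lower in all of them, between -0.77 and -0.52. Fabp5 had -0.60 in Ccr2+ C3 cells but 0.35 in other C3 cells, 0.21 in C14, 0.14 in C2 and 0.82 in C0.

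Antibody tags gave another readout of the surface, not used to choose the cells. The deposited tag tables name none of their 11 rows. 2 rows were matched in both libraries, to CD4 and CD8a, by their correlation with the transcript across cells, and 9 are not named. The median CD8a tag count was 65 in WT and 59 in Batf3-/- Ccr2+ C3 cells against 53 and 52 in the other C3 cells, 22.6% and 13.5% more. In C2 it was 40.5 and 41, in C14 55 and 51 and in C4 122 and 106. Ccr2+ C3 cells thus lay above cDC2b and below C4 in CD8a tag, with quartiles of 45.0 to 89.0 and 46.0 to 78.0 that overlapped those of the other C3 cells (42.0 to 75.5 and 42.0 to 73.0).

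Within Ccr2+ C3 cells the CD8a tag followed the Cd8a transcript. Cells with 0 Cd8a UMIs had a median of 44.5 tags in WT (66 cells) and 45 in Batf3-/- (165 cells), and those with at least 1 had 76 (159 cells) and 67 (403 cells). The other C3 cells showed nearly the same levels, 47 and 46 with 0 UMIs and 80 and 75 with at least 1. The rows were named by this very relation, so it is no independent check. The median CD4 tag count was 30 and 31 against 34 and 35, 11.8% and 11.4% less, in the direction of the Cd4 transcript. In C4, which the paper took as CD4 background, it was 27 and 31, and in C14 it was 79 and 65. Both parts of C3 thus lay near that background. Of the 9 unnamed rows 1 was 18.8% and 12.8% lower, and the others differed by between -8.54% and 3.70%.

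**Figure D5:**
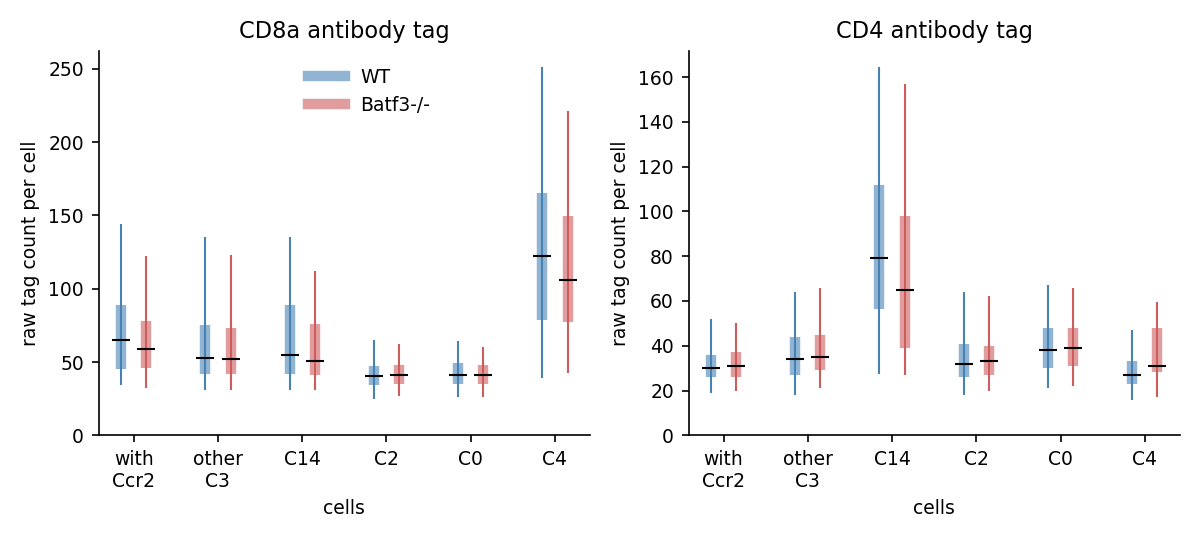
CD8a and CD4 tag counts per cell in Ccr2+ C3 cells (with Ccr2), other C3 cells, C14, C2, C0 and C4 of each library, with the median as a black line, the quartiles as a bar and the 5th to 95th percentile as a thin line. The CD8a medians of Ccr2+ C3 cells are 65 and 59, against 40.5 and 41 in C2.

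Depth was unequal between Ccr2+ and other C3 cells, and the main counts were recomputed with that in view. When cells were both chosen and counted after thinning to 2000 UMIs, 145 genes were higher and 107 lower, and within 5 strata of depth 102 and 95. After thinning, the group at 0 also holds cells whose Ccr2 molecules were removed. Beside Ly6c2 and Cd209d, the ratio moved by over 1.5-fold in at least 1 library for Ly6a, Ccr1, Cd209a, Crip1 and Lgals1, toward 0, and for Ccl5, Apoe, Ube2e2 and Rogdi, away from 0.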

How the data were processed

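CITE-seq libraries of 1 WT and 1 Batf3-/- pool were analysed. Per the submitters' processing notes, the authors used bcl2fastq 2.2.0, Cell Ranger and Seurat 3.0.5 with GRCm38 (mm10), and by the study's methods they evened sequencing depth between the libraries and filtered cells and genes. The authors deposited raw counts of UMIs for 17751 genes and of antibody tags in each cell. Their normalized tag tables are deposited on a natural log scale as centered log ratios and served only as an alternative. The authors gave the mitochondrial and the ribosomal part of a cell's UMIs as a fraction, printed here in percent. Cluster numbers, phases and SingleR labels are the deposited labels.

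Cells were chosen by cluster number and at least 1 raw Ccr2 UMI. UMIs were summed per group of cells and library and divided by all their UMIs to give CPM, so deep cells weigh more. Ratios are log2 ratios of CPM with exact 95% intervals from the binomial split of summed counts, levels carry exact Poisson intervals and shares Clopper-Pearson intervals. They cover counting error only, and cells are not replicates. Genes needed a mean of 50 CPM over the sums compared. A gene was counted higher or lower at 1.5-fold in both libraries (against other C3 cells), 2-fold in both (against C14 or C2) or 1.5-fold (between genotypes). With 1 library per genotype no test was made. Without strand or isoform information, overlapping genes and close copies are uncertain.

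Named genes were all those of 32 gene lists, of which the more abundant are described, and by size of the ratio nearest to 0 of the 2 libraries the 10 genes at each end against other C3 cells, 5 at each end against C14, against C2 and between genotypes. Some genes are not reported here. The cells and the lists were chosen with earlier results of these data known. Doublets were scored with Scrublet through scanpy 1.11.5 at an expected rate of 0.1, whose automatic threshold marked 1 cell of the Batf3-/- library and so did not work there. They were kept, and leaving out the 5% of cells with the highest scores was an alternative added after seeing the data. Other alternatives changed the Ccr2 cut, depth, level filter, fold, weights, phase and gene filter. Tag rows were named only where the transcript correlated best in both libraries. Scripts were tested on simulated data and used pandas 2.3.3, scipy 1.17.1, numpy 2.4.6 and matplotlib 3.10.9 under Python 3.11.15. Promoter sequences are from RefSeq.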

Additional observations from a re-analysis of the deposited data

Results flagged for a closer look

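H2-Ab1, an MHCII beta chain, had a log2 ratio of Ccr2+ over other C3 cells of -0.0966 in WT and 0.0380 in Batf3-/-, with counting intervals on opposite sides of 0. This was so for 1 of 185 listed genes and for 2 of 2602 genes compared. Both ratios are small, the 2 libraries have no replicates, and the difference between them was not tested.

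In data outside the comparisons, the unnamed antibody row 9 exceeded 1000 counts in 30 cells of the Batf3-/- library and in 1 cell of the WT library, with a highest count of 248923 against 3767. None of these were Ccr2+ C3 cells, in which this row reached at most 269 counts in Batf3-/- and 57 in WT. The difference was not tested.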

How the results depend on the processing

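No paired analysis was possible because each genotype is 1 library with 1 pool of mice. The share of C3 cells with Ccr2 (32.0% in WT and 36.9% in Batf3-/-) moved to 22.4% and 28.2% with 2 UMIs required, to 10.1% and 11.7% after thinning to 1000 UMIs, to 14.6% and 18.1% at 2000 and to 26.1% and 29.7% at 5000. Against other C3 cells, a filter of 20 CPM gave 271 genes higher and 245 lower and a 2-fold rule 55 and 42. Against C14, 20 CPM gave 224 and 422 and a 1.5-fold rule 250 and 373, and against C2 169 and 207, and 190 and 186. Between genotypes, 20 CPM gave 34 and 27, a 2-fold rule 0 and 2, and equal weight for each cell 5 lower genes. These follow from the construction of the alternatives, except the last, whose cause was not tested. The other alternatives left each count within 1.5 times. Of 473 recomputed values of single named genes, 117 moved out of their counting interval and 0 changed direction. With cells chosen and counted after thinning 29 moved and 11 did not, within depth strata 21 and 19, with equal weights 23 and 63, and without the highest Scrublet scores 19 and 64. Leaving out the cells with the highest Scrublet scores gave 152 and 130 against other C3 cells. Counts near 0 and the missing replicates limit what can be said of single genes between genotypes.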
